A study of Mus musculus with 2 samples.

Results

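Mouse fibroblasts were compared between the dimmest and the next brighter of 4 sort gates along a Venus reporter of the clock gene Nr1d1. On each of 2 plates the 4 gates were ordered by their median Venus image intensity in the deposited sorting record, and the lowest is called gate 1 and the next gate 2. Each gate filled 96 wells per plate, and cells with at least 1000 detected genes were kept. That left 95 cells in gate 1 and 96 in gate 2 on plate 1, and 96 in each gate on plate 2, so 383 of the 768 cells of the series entered. Counts of these cells were summed per plate and gate, and the gates were paired by plate.

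All cells were NIH3T3-Rev-VNP1-H2B-iRFP fibroblasts, a derivative of the mouse embryonic fibroblast line NIH3T3 with a Venus reporter named for Nr1d1 and a nuclear H2B-iRFP label, iRFP being a near-infrared fluorescent protein. The line carried both reporters in every group, and no treatment or synchronization was given. By the labels, sorting took place about 5 days after seeding, at 95% confluency, with 1 cell per well, and libraries were made by FLASH-seq, which reads whole transcripts of single cells. Plate 1 held only cells recorded as a high RFP sort and plate 2 only cells recorded as a low RFP sort, so plate and H2B-iRFP sort cannot be told apart. Gate 1 filled well columns 1 to 6 and gate 2 well columns 7 to 12 on both plates, so gate and plate position cannot be told apart either. The labels do not say whether the plates came from separate cultures, and p-values measure only the spread between these sums, which may be technical.

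The mammalian clock is a feedback loop in which CLOCK and BMAL1 (encoded by Arntl) bind E-boxes and activate their own repressors, the Period and Cryptochrome genes. They also activate Nr1d1 and Nr1d2, which encode REV-ERB alpha and beta, and Dbp, Tef and Hlf, whose proteins act through D-boxes. REV-ERB proteins repress genes with a ROR element (RORE), among them Arntl, so genes with E-boxes and D-boxes and genes with ROREs peak at opposite phases. In NIH3T3 cells this loop runs in each cell, and without synchronization the cells of a culture drift out of phase with each other.

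The promoter windows below are the 250 bases upstream of the annotated start of 5 clock genes, from RefSeq (GRCm38.p6). Nr1d1 is the gene of the reporter, Bhlhe41 and Per3 had the next largest positive steps of the E-box and D-box list, Arntl stands for the RORE genes, and Ciart was added after its matches had been seen. Capitals mark matches, on either strand, to the E-box CACGTG, the D-box TTANNTAA or the RORE core AGGTCA.
Nr1d1, chr11:98775378-98775627, minus strand: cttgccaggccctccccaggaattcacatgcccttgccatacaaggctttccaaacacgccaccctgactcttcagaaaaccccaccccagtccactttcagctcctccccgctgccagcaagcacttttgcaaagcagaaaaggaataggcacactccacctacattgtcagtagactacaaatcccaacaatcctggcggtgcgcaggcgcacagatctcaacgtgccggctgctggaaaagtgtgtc
Bhlhe41, chr6:145865421-145865670, minus strand: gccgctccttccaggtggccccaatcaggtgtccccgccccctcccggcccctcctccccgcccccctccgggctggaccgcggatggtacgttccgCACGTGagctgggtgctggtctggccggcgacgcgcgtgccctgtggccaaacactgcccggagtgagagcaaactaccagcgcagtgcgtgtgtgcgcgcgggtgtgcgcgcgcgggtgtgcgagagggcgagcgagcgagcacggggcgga
Per3, chr4:151044666-151044915, minus strand: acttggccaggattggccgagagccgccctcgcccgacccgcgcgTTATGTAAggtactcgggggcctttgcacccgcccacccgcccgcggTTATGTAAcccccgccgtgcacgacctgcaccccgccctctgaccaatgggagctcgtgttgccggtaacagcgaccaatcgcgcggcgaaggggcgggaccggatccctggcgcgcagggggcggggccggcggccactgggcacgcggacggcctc
Ciart, chr3:95882229-95882478, minus strand: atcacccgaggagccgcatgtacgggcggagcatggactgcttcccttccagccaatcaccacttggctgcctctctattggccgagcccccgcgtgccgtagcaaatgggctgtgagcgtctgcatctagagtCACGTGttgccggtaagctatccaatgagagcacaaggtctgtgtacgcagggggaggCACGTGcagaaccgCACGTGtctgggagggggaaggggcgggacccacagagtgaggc
Arntl, chr7:113207215-113207464, plus strand: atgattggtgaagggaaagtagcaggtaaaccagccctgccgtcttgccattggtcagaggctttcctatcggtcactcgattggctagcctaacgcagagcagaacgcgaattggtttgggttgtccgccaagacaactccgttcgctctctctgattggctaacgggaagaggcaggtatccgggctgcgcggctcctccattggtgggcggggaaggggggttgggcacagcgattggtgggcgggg

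The E-box stood in 6.02% of the 32851 promoter windows of this length, the D-box in 5.43% and the RORE core in 14.02%. Of 18 clock genes in the E-box/D-box and RORE lists, 16 had a window in the table, and 5 of them held an E-box, 2 a D-box and 4 a RORE core in any of their windows. Bhlhe41 held 1 E-box starting at base -153, Per3 held 2 D-boxes starting at -205 and -158, and Ciart held 3 E-boxes at -116, -58 and -44. The windows of Nr1d1 and Arntl held none of the 3 motifs. A match describes these letters only, and a window without a match says nothing of sites elsewhere in the gene.

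The 2 gates were separate on the detector and partly overlapped on the image channel that ordered them. Median Venus image intensity was 944265 units in gate 1 and 2535942 in gate 2 on plate 1, and 953431 and 2696469 on plate 2. These are ratios of 2.69 and 2.83. On the 530 nm detector the medians differed 3.22-fold and 3.54-fold, and no cell of either gate lay within the range of the other. On the image channel 11 of 95 and 7 of 96 cells of gate 1 lay above the dimmest cell of gate 2 on plates 1 and 2, and 41 and 7 of 96 cells of gate 2 lay below the brightest cell of gate 1. These intensities follow from the sort itself and are given as a description.

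Medians of the other measures of the cells differed little between the gates. Median H2B-iRFP intensity was 0.947 times that of gate 1 in gate 2 of plate 1 and 1.09 times on plate 2. Forward scatter, which is related to cell size, was 1.04 and 1.08 times as high in gate 2. The sums held 76042157 and 84500392 counts for gates 1 and 2 of plate 1, and 79235125 and 76477681 for plate 2, with median totals of 791215 to 874472 counts per cell. The median number of genes detected per cell lay between 10855 and 11089.5, and the median mitochondrial share was 9.77% and 9.26% in gates 1 and 2 of plate 1 and 7.23% and 7.79% on plate 2.

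The cells carried fibroblast transcripts in both gates. All 10 fibroblast markers were tested, and their summed level was 28106 to 31474 CPM (each gene's share of the counts, scaled by the TMM normalization of edgeR) over the 4 sums. Epithelial markers summed to at most 45.8 CPM, with Epcam and Krt18 at 0, and immune markers to at most 8.97. Myogenic markers summed to 4.12 and 7.67 CPM in gate 1 and 3.19 and 1.72 CPM in gate 2. The 3 tested had a median log2 change of -0.94 on plate 1 alone and -1.79 on plate 2. All 3 were lower at an unadjusted p under 0.05 by edgeR, where 7.68% of all genes were. None was called at an adjusted p under 0.05, where 0.282% of all genes were. Endothelial markers summed to 1.09 and 1.34 CPM in gate 1 and 0.722 and 0.539 CPM in gate 2, with 2 of 4 lower at that threshold and none called. The part of such cells in the results was not tested. Of the 5 adipocyte markers in the table, Lpl alone was tested, and the other 4 together reached at most 0.0647 CPM.

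Of 18430 genes tested, 52 differed between the gates at an adjusted p under 0.05 by edgeR's quasi-likelihood test with Benjamini-Hochberg adjustment, or 0.282% of those tested. They comprised 28 genes higher in gate 2 (0.152%) and 24 lower (0.13%). All 52 had the same sign on both plates, while over all 18430 genes 5441 were positive and 5500 negative on both. A call with plate as a block favours genes whose plates agree, so the shared sign is not separate evidence. Of the 52 genes, 26 had an adjusted p above 0.04. The count differed between fits: 3 genes passed without plate as a block, 9 passed with the 4 sums of gates 1 and 2 alone, 147 passed when each cell was thinned to one depth, and DESeq2 called 723 (5.38% of the genes it tested). Among the 25 called genes named by rule, Nr1d1 and the reporter transcript alone passed in all 12 alternative fits that gave a test. All 25 kept their direction in each.

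The reporter transcript and Nr1d1 rose most firmly across this step. The YFP feature of the count table, which stands for the Venus reporter, measured 20.3 and 23.4 CPM in gate 1 of plates 1 and 2 and 96.9 and 105 CPM in gate 2. Both sums of gate 2 lay far above both sums of gate 1. Its log2 change was 2.21 ± 0.07 (SE), a 4.62-fold difference, at an adjusted p of 2.80e-05 (edgeR). In summed counts fewer cells with a transcript and less of it per cell cannot be told apart. YFP is the transcript of the sorted protein, so its step follows the sort and checks the gate labels.

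Nr1d1 (ENSMUSG00000020889.12), which encodes the repressor REV-ERB alpha, measured 63.6 and 67.5 CPM in gate 1 and 219 and 217 CPM in gate 2. The mean was 65.6 ± 2.75 CPM (SD, n = 2 plates) in gate 1 and 218 ± 1.19 CPM in gate 2. The plates lay within a few CPM of each other in both gates, and the gates did not overlap. The log2 change was 1.73 ± 0.06, a 3.33-fold difference, at an adjusted p of 5.0e-05 (edgeR). Over the alternative fits the value ranged from 1.52, without cells that held no YFP count, to 1.74.

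The fitted change of the reporter transcript was larger than that of Nr1d1. The ratio of Nr1d1 to YFP CPM was 3.13 and 2.89 in gate 1 of plates 1 and 2 and 2.26 and 2.07 in gate 2. Both ratios of gate 2 were below both of gate 1, and the difference between the 2 genes was not tested. Nr1d1 overlaps Thra, the thyroid hormone receptor alpha gene on the opposite strand, in the supplied annotation, and the strand setting of the counts is not given in the sources used here. Thra itself had a log2 change of 0.08 ± 0.07 (adjusted p = 0.65, edgeR).

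In single cells Nr1d1 was found nearly everywhere and the reporter transcript was missing from part of gate 1. Nr1d1 had a count in 91 of 95 and 95 of 96 cells of gate 1 and in all 96 cells of gate 2 on each plate. Median cell levels of Nr1d1 were 47.9 and 60.0 CPM in gate 1 and 178 and 196 CPM in gate 2. YFP had a count in 72 of 95 and 79 of 96 cells of gate 1, and in 95 of 96 and 96 of 96 cells of gate 2. Within a gate, Nr1d1 and YFP levels ranked cells alike, with Spearman coefficients over cells of 0.813 and 0.713 in gate 1 and 0.948 and 0.896 in gate 2. Cells share library preparation and depth, and these coefficients are a description.

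**Figure D1:**
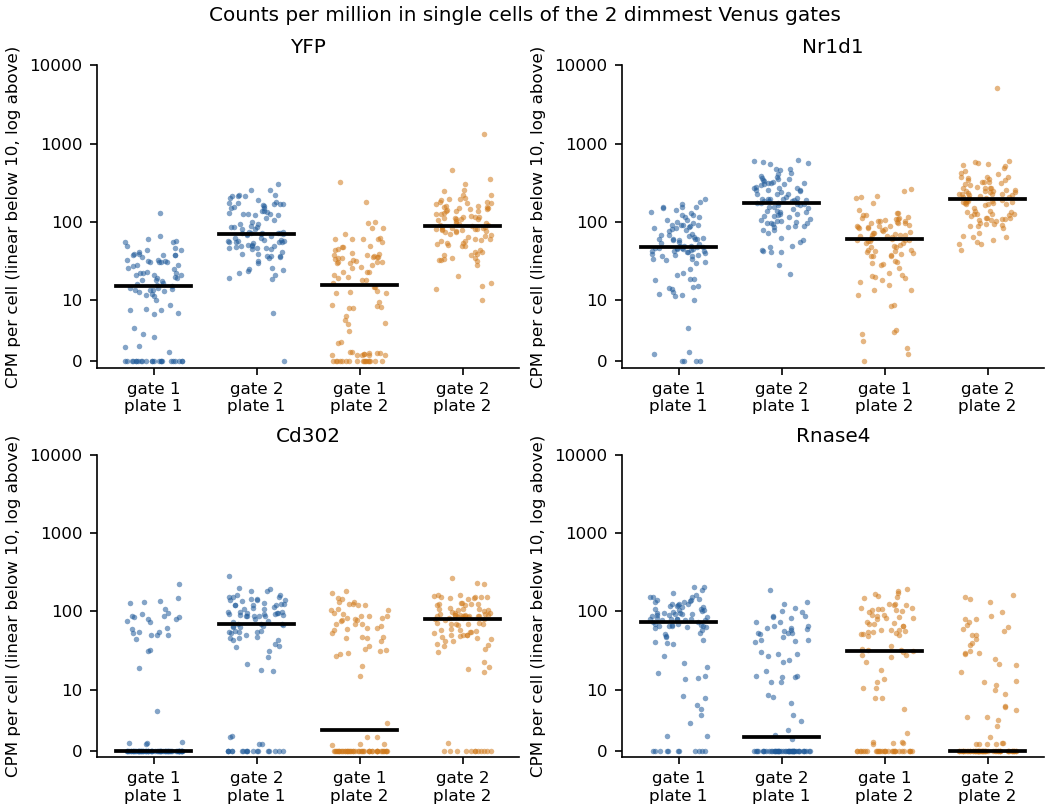
Each point is a cell of gate 1 or gate 2 on plate 1 (blue) or plate 2 (orange), and the vertical axis is CPM of YFP, Nr1d1, Cd302 or Rnase4, linear below 10 and logarithmic above, with bars at the medians. YFP and Nr1d1 are shifted upward as a whole in gate 2, while Cd302 has fewer cells at or near 0 in gate 2 and Rnase4 has more.

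Beside Nr1d1, no member of the E-box/D-box or RORE lists passed the test. In the E-box/D-box list 10 of the 13 members tested had positive changes. The list had 1 call, Nr1d1, where 0.282% of all genes were called. Its median log2 change was 0.26 (0.24 on plate 1 alone and 0.13 on plate 2), beside -0.001 over all genes tested. At an unadjusted p under 0.05, 6 of the 13 were higher in gate 2, where 7.02% of all genes were, and none was lower, where 7.68% were. In 7 of the 13 both sums of gate 2 were above both sums of gate 1, which held for 20.0% of all genes, and in 1 both were below, which held for 20.7%.

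After Nr1d1 the steps of the E-box/D-box list were small. Bhlhe41, an E-box repressor, measured 8.53 and 12.1 CPM in gate 1 and 14.4 and 16.9 CPM in gate 2, a log2 change of 0.61 ± 0.10 (adjusted p = 0.0717, edgeR). Per3, a Period gene, measured 15.0 and 16.3 CPM in gate 1 and 23.6 and 22.0 CPM in gate 2, a log2 change of 0.54 ± 0.09 (adjusted p = 0.0661, edgeR). Tef, a D-box factor, measured 41.3 and 55.9 CPM in gate 1 and 58.4 and 67.6 CPM in gate 2, a log2 change of 0.38 ± 0.07 (adjusted p = 0.0726, edgeR). In these 3 genes both sums of gate 2 lay above both of gate 1, as in 20.0% of all genes. Their adjusted p lay just above the threshold. Per3 and Tef passed in 4 of the 12 alternative fits each and Bhlhe41 in 3, with adjusted p from 3.31e-05 to 0.441 over the 3 genes.

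The remaining Period, Cryptochrome and D-box genes were further from the threshold. Cry2, a Cryptochrome, had a log2 change of 0.39 ± 0.09 (adjusted p = 0.134, edgeR). Dbp, the D-box factor most often used as an output of the clock, measured 18.2 and 18.9 CPM in gate 1 and 21.5 and 22.9 CPM in gate 2. The fit gave a log2 change of 0.26 ± 0.07 (adjusted p = 0.156, edgeR), and it was 0.61 (adjusted p = 0.0469) without the cells that held no YFP count. Those cells numbered 23 and 17 in gate 1 and 1 and 0 in gate 2, so leaving them out removes mostly cells of gate 1.

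Nr1d2, which encodes REV-ERB beta, did not pass with its paralog. It measured 10.9 and 12.1 CPM in gate 1 and 11.2 and 13.0 CPM in gate 2, and the gates overlapped. In the fit the log2 change was 0.07 ± 0.09 (adjusted p = 0.817, edgeR). Bhlhe40 and Usp2 had changes of 0.12 and 0.07, and Per1, an immediate target of many signals as well as of the clock, had -0.02 ± 0.10. The sign of Per1 turned to positive in 3 fits, at up to 0.13 without cells that held no YFP count.

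Per2, Ciart and Hlf were low and their plates disagreed or rested on few cells. Per2 had a log2 change of 0.80 on plate 1 and -0.26 on plate 2, and Ciart of 0.11 and -0.58. Ciart, whose window above held 3 E-boxes, measured 2.38 and 2.31 CPM in gate 1 and 2.57 and 1.54 CPM in gate 2. Hlf had counts in 1 and 5 cells of gate 1 and in 1 and 0 cells of gate 2, and its fitted value of -2.47 ± 1.42 rests on those few cells.

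Arntl, which encodes the activator BMAL1, was slightly lower in gate 2 without passing the test. It measured 52.4 and 42.4 CPM in gate 1 and 42.1 and 39.8 CPM in gate 2. The gates did not overlap but came within 1 CPM of each other, and plate 1 of gate 1 stood highest. Its log2 change was -0.21 ± 0.09 (adjusted p = 0.334, edgeR). Of the 5 RORE list members tested, 2 had positive changes, with a median of -0.12. None was called, where 0.282% of all genes were. Cry1 had 0.33 ± 0.10 (adjusted p = 0.20, edgeR), Nfil3 0.12 and Clock -0.12, and Npas2 was nearly absent, at no more than 0.633 CPM.

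**Figure D2:**
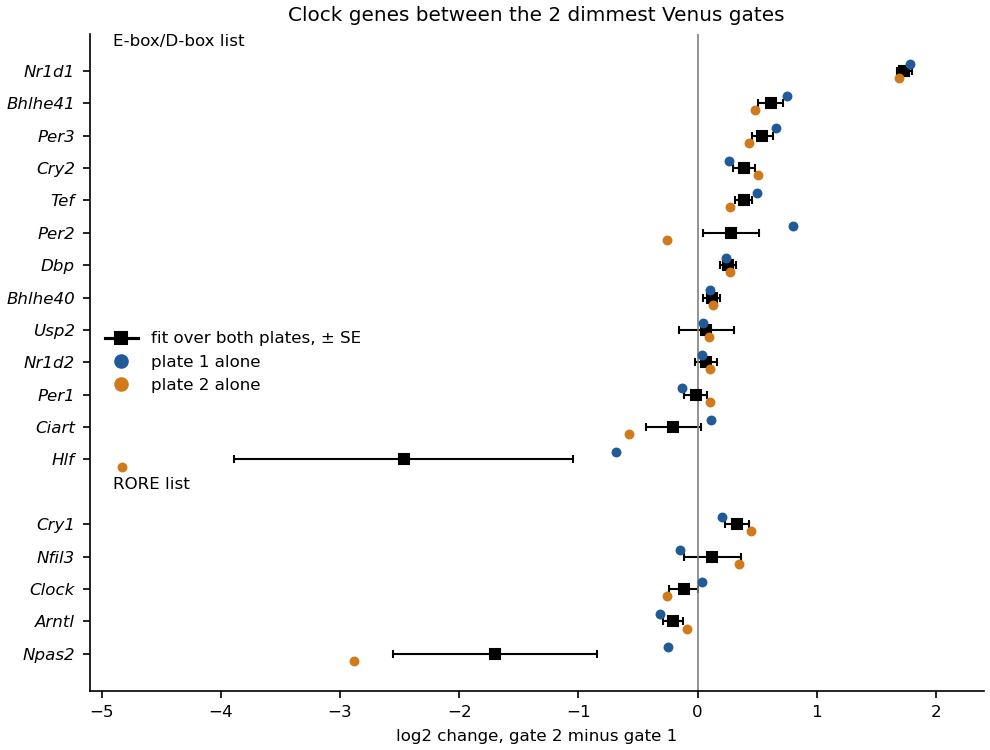
The horizontal axis is the log2 change from gate 1 to gate 2 for the 13 E-box/D-box and the 5 RORE clock genes, with squares and bars for the fit over both plates and its SE and dots for each plate alone. Nr1d1 stands apart at 1.73, and the next squares, Bhlhe41 and Per3, lie at 0.61 and 0.54.

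The list of other clock components, with kinases, ubiquitin ligases and corepressors, had 14 members tested and 1 called, where 0.282% of all genes were called. Wee1, a mitotic inhibitor kinase and a known E-box target of the clock, measured 9.55 and 8.84 CPM in gate 1 and 15.0 and 20.03 CPM in gate 2. The log2 change was 0.92 ± 0.13 with an adjusted p of 0.0498 by edgeR, and it passed in 6 of the 12 alternative fits. The changes of the 14 genes had a median of -0.003, at the level of all genes tested.

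Beyond the clock, the largest rise among genes whose log2 CPM averaged 3 or more, predicted genes left out, was that of Cd302, a C-type lectin receptor. It measured 24.7 and 37.8 CPM in gate 1 and 74.8 and 79.3 CPM in gate 2, so both sums of gate 2 were well above gate 1. The fit gave a log2 change of 1.32 ± 0.12, a 2.50-fold difference, at an adjusted p of 0.0189 (edgeR). The cells differed mainly in whether Cd302 was detected. It had a count in 33 of 95 and 53 of 96 cells of gate 1, and in 78 and 84 of 96 cells of gate 2. After each cell was thinned to 640107 counts the shares were 35.6% and 53.8% against 79.8% and 88.4%.

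Lpl, the lipoprotein lipase that releases fatty acids from triglycerides, measured 112 and 119 CPM in gate 1 and 207 and 284 CPM in gate 2. In the fit the log2 change was 1.08 ± 0.15 (adjusted p = 0.0416, edgeR). Unlike Cd302 it had counts in at least 89 cells of every sum. The single cell with most Lpl held 13.7% of the counts of gate 1 on plate 1, and the change was 1.11 without the top cell of each sum. Lpl passed in 7 of the 12 alternative fits.

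The growth hormone receptor Ghr and Socs2, a feedback inhibitor of growth hormone signalling, both rose. Ghr measured 145 and 158 CPM in gate 1 and 203 and 252 CPM in gate 2, a log2 change of 0.58 ± 0.06 (adjusted p = 0.0264, edgeR). Socs2 measured 44.6 and 50.3 CPM in gate 1 and 73.9 and 88.6 CPM in gate 2, a log2 change of 0.77 ± 0.09 (adjusted p = 0.0336, edgeR). Each passed in 10 of the 12 alternative fits.

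The other named rises ran from 0.47 to 0.72 on the log2 scale. Gas2, a growth arrest gene that binds the cytoskeleton, changed by 0.72 ± 0.08, and Mycbp2, a large ubiquitin ligase, by 0.68 ± 0.09. The nuclear import factor Ipo5 changed by 0.58 ± 0.08, the vitamin B6 kinase Pdxk by 0.53 ± 0.07 and the laminin beta 2 chain gene Lamb2 by 0.53 ± 0.06. Ly6a, the surface antigen Sca-1, measured 791 and 783 CPM in gate 1 and 1117 and 1063 CPM in gate 2, a log2 change of 0.47 ± 0.04 (adjusted p = 0.0198, edgeR). In each of these genes the gates did not overlap, as in all 52 called genes. Over all genes tested, both sums of gate 2 lay above both of gate 1 in 20.0% and below both in 20.7%.

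Of the 10 fibroblast markers, 2 were called, both higher in gate 2 by small amounts, where 0.152% of all genes were called higher. Vim, the intermediate filament vimentin, averaged 3359 ± 105 CPM (SD, n = 2 plates) in gate 1 and 4023 ± 51.5 CPM in gate 2, a log2 change of 0.26 ± 0.03 (adjusted p = 0.0414, edgeR). Sparc, a collagen-binding matrix protein, averaged 2156 ± 199 CPM in gate 1 and 2581 ± 172 CPM in gate 2, a log2 change of 0.26 ± 0.04 (adjusted p = 0.0439, edgeR). Among the collagens of the marker list, Col1a1 had a log2 change of 0.04 ± 0.06 and Col1a2 of 0.10 ± 0.04, and neither passed.

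Rnase4, a secreted ribonuclease, had the lowest adjusted p of the falls among genes whose log2 CPM averaged 3 or more. It measured 76.4 and 47.4 CPM in gate 1 and 26.4 and 19.1 CPM in gate 2, with plate 1 above plate 2 in both gates. Its log2 change was -1.42 ± 0.10 (adjusted p = 0.00379, edgeR), and it passed in 11 of the 12 alternative fits. Counts were present in 84 of 95 and 67 of 96 cells of gate 1 and in 49 and 45 of 96 cells of gate 2. Rnase4 overlaps Ang on the same strand in the supplied annotation, and how reads were divided between them is not given in the sources used here.

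S1pr1 and S1pr3, 2 receptors for the lipid sphingosine 1-phosphate, both fell. S1pr1 measured 20.6 and 21.8 CPM in gate 1 and 11.3 and 13.1 CPM in gate 2, a log2 change of -0.80 ± 0.10 (adjusted p = 0.0373, edgeR). S1pr3 measured 57.8 and 70.5 CPM in gate 1 and 36.4 and 42.9 CPM in gate 2, a log2 change of -0.69 ± 0.08 (adjusted p = 0.0341, edgeR). S1pr1 went to -0.92 and S1pr3 to -0.31 (adjusted p = 0.0300 and 0.149) without the cells that held Fmr1nb, Gm32885 or Efcab3, 3 transcripts found in 14 of 95 and 17 of 96 cells of gate 1 and in 0 and 1 cells of gate 2.

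Another 2 falls were smaller without these cells. Why was not tested. Gpr137b, which encodes a lysosomal membrane protein, changed by -0.69 ± 0.09 (adjusted p = 0.0416, edgeR) and by -0.07 (adjusted p = 0.768) without them. Mpzl1, a cell surface glycoprotein, changed by -0.52 ± 0.07 (adjusted p = 0.0414, edgeR) and by -0.25 (adjusted p = 0.121) without them. Platr3, a noncoding RNA, fell by 1.32 and Fam198b, a Golgi protein gene, by 0.69 on the log2 scale.

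Tpt1, Arpc2 and Tmed1 had the smallest falls of the 10. Tpt1 encodes the translationally controlled tumour protein and measured 1782 and 1469 CPM in gate 1 and 1348 and 1163 CPM in gate 2, a log2 change of -0.37 ± 0.05 (adjusted p = 0.0462, edgeR). Arpc2, a subunit of the actin-nucleating Arp2/3 complex, measured 304 and 313 CPM in gate 1 and 242 and 249 CPM in gate 2, a log2 change of -0.33 ± 0.05 (adjusted p = 0.0449, edgeR). Tmed1, which acts in vesicle transport, changed by -0.50 ± 0.06 (adjusted p = 0.0303, edgeR).

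**Figure D3:**
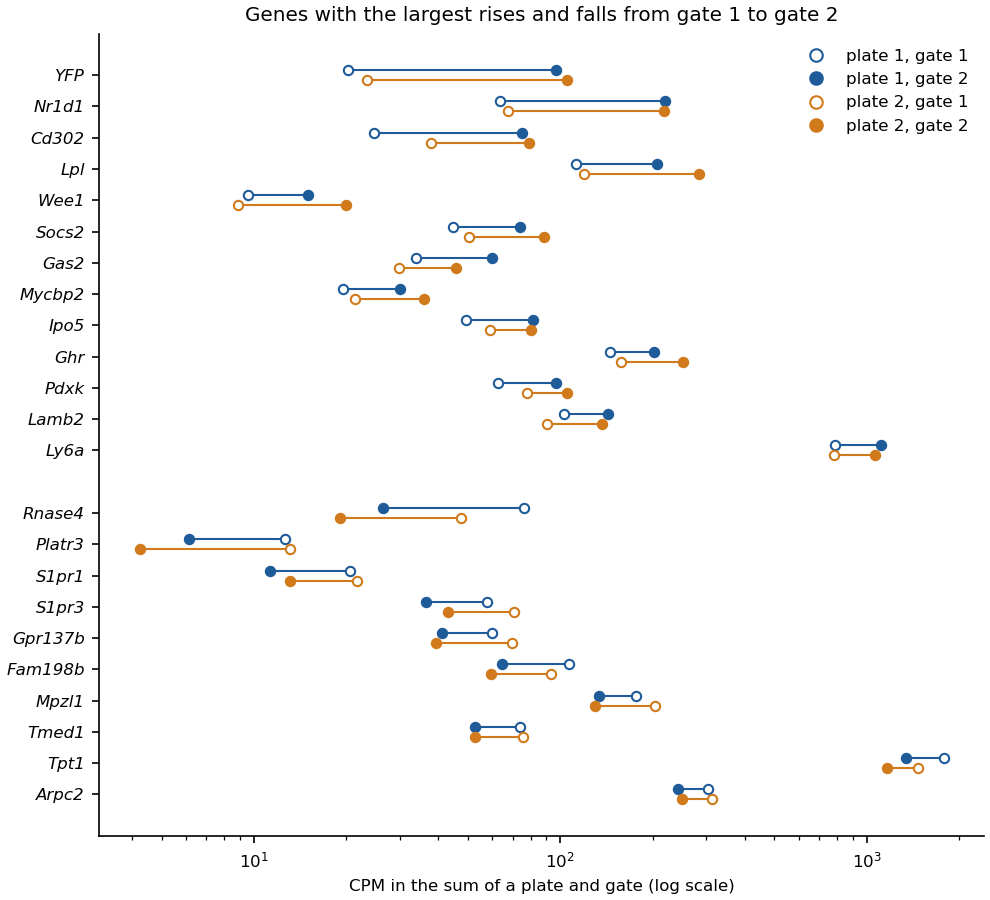
Open circles are gate 1 and filled circles gate 2, joined within plate 1 (blue) and plate 2 (orange), on a log axis of CPM in the summed counts, for the reporter transcript, the 12 largest rises and the 10 falls named by rule. In every gene shown both filled circles lie on the same side of both open circles, as in all 52 called genes. Over all genes tested both sums of gate 2 lay above in 20.0% and below in 20.7%. Only YFP, Nr1d1, Cd302, Lpl, Rnase4 and Platr3 have fitted changes above 1 on the log2 scale in size.

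Most S phase genes had positive changes, without any call. Of 46 S phase genes 38 had positive changes, with a median log2 change of 0.35. None was called, where 0.282% of all genes were. The median was 0.17 on plate 1 and 0.48 on plate 2, 28 genes were positive on both plates, and 12 were higher at an unadjusted p under 0.05. Over all 18430 genes 49.7% were positive, 5441 were positive on both plates and 7.02% were higher at that threshold. Among members chosen after their values were seen, the replicative helicase subunit Mcm4 had a log2 change of 0.39 ± 0.09 (adjusted p = 0.133, edgeR) and the polymerase subunit Pola1 of 0.74 ± 0.18 (adjusted p = 0.136, edgeR). The 54 G2/M genes had a median of 0.05 and 32 positive members, and it went to -0.18 without cells that held no YFP count.

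No gene of the Id, BMP and TGF-beta list or of the p53 targets passed the test, where 0.282% of all genes did. The Id, BMP and TGF-beta list had a median of -0.22 over 13 genes, 9 of them negative, of which 5 had an unadjusted p under 0.05 (7.68% of all genes were lower at that threshold). Id3, an inhibitor of basic helix-loop-helix factors, measured 378 and 377 CPM in gate 1 and 282 and 281 CPM in gate 2, a log2 change of -0.42 ± 0.08 (adjusted p = 0.0935, edgeR). Its paralogs Id1 and Id2, chosen after their values were seen, had -0.63 ± 0.11 and -0.58 ± 0.14 (adjusted p = 0.0717 and 0.135, edgeR). In both paralogs the sums of gate 2 lay below those of gate 1, as in 20.7% of all genes. Tgfbi, a TGF-beta-induced matrix gene of the same list, went the other way at 0.81 ± 0.15 (adjusted p = 0.0726, edgeR). Targets of p53 had a median of -0.20 over 18 genes, 12 of them negative, and 7 of those had an unadjusted p under 0.05, beside the same 7.68% of all genes.

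Collagens had a median of 0.02 over 22 genes, cholesterol synthesis -0.02 over 20, the 13 mitochondrially encoded genes -0.02, ribosomal proteins -0.02 over 46 and nuclear respiratory chain subunits 0.06 over 37. Matrix proteases and their inhibitors had -0.14 over 17 genes, with 7 lower and 3 higher at an unadjusted p under 0.05, and in 9 both sums of gate 2 lay below gate 1 (20.7% of all genes). Smooth muscle and SRF targets had -0.12 over 15 with 12 negative, and interferon-stimulated genes 0.24 over 19 with 16 positive. None of these lists had a called member, where 0.282% of all genes were called. The plate medians of the interferon genes were 0.13 and 0.49.

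**Figure D4:**
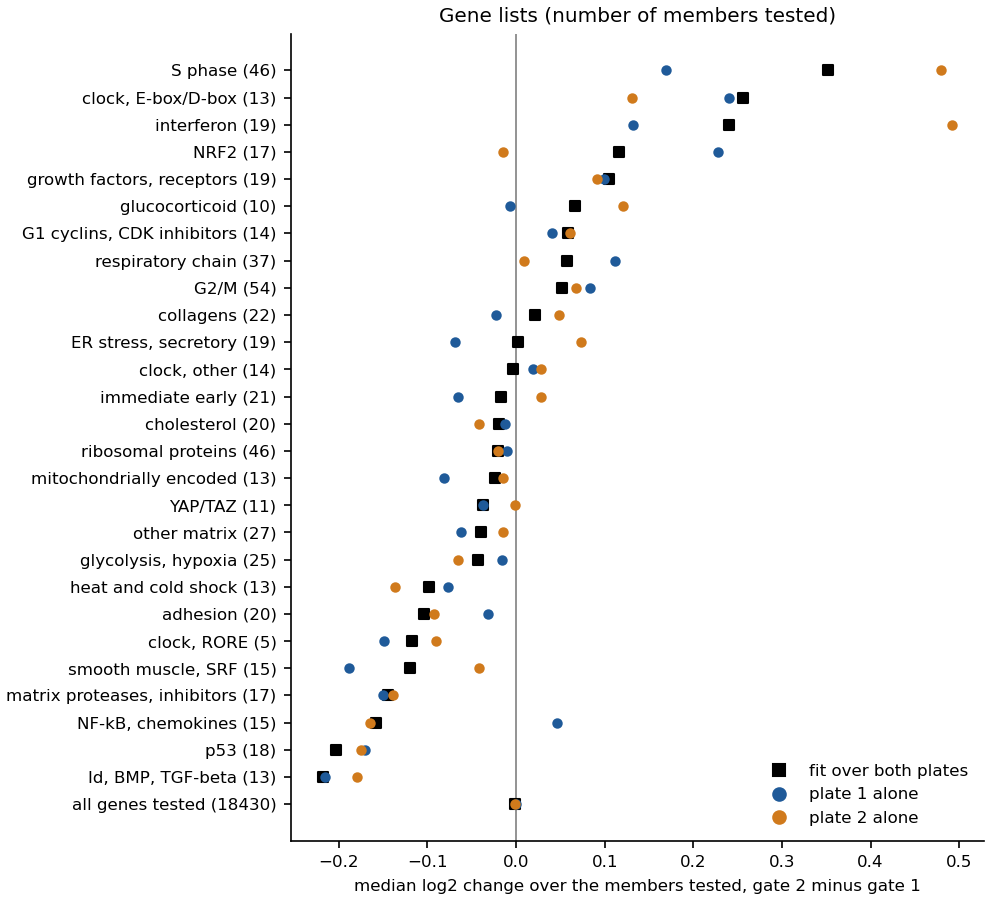
Squares give the median log2 change from gate 1 to gate 2 over the tested members of each list (number in brackets) and dots the median on each plate alone, with all 18430 genes in the lowest line. S phase genes lie highest at 0.35 and the Id, BMP and TGF-beta list lowest at -0.22, while all genes lie at -0.001.

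The step from gate 1 to gate 2 was set against the later steps toward brighter gates in the same fit. Median Venus image intensity over gates 1 to 4 was 944265, 2535942, 7438393 and 33090943 units on plate 1. On plate 2 it was 953431, 2696469, 8232278 and 31581582 units. The steps spanned unequal ranges of Venus, and the log2 changes were not scaled to them. Against the step from gate 2 to gate 3, which shares the sums of gate 2, no gene differed at an adjusted p under 0.05 by edgeR, while 1475 of 18430 (8.0%) had an unadjusted p under 0.05. With limma voom 1 gene passed and with DESeq2 126. Against the step from gate 3 to gate 4, which shares no sums with it, 133 genes differed (0.722%). Of the 52 genes called between gates 1 and 2, 29 were among them, and in 27 of these the later step had the opposite sign. The first step is part of that difference, so the overlap is not separate evidence.

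Dbp, Nr1d2 and Arntl had larger fitted values for the step from gate 2 to gate 3 than for the first. Dbp had a log2 change of 0.26 in the first step and of 1.27 from gate 2 to gate 3, and the difference of -1.02 ± 0.12 had an adjusted p of 0.127 by edgeR. Nr1d2 had 0.07 and then 1.18, with a difference of -1.11 ± 0.16 (adjusted p = 0.247, edgeR). Arntl had -0.21 and then -1.20, with a difference of 0.99 ± 0.15 (adjusted p = 0.248, edgeR). None of these differences passed the test. Nr1d1 changed by 1.73, 1.31 and 1.13 over the 3 steps, and its first step exceeded the last by 0.60 ± 0.08 (adjusted p = 0.040, edgeR). The first step, in which Nr1d1 was called, is part of that difference.

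Some genes called in this step had lower means again in later gates. Socs2 averaged 47.4, 81.2, 67.5 and 36.7 CPM over gates 1 to 4, and its first step exceeded the last by 1.66 ± 0.13 (adjusted p = 0.0194, edgeR). Ghr averaged 152, 227, 185 and 152 CPM, with a difference of 0.86 ± 0.09 (adjusted p = 0.0274, edgeR). Lamb2 averaged 97.0, 140, 108 and 91.0 CPM, with 0.77 ± 0.09 (adjusted p = 0.0347, edgeR). By these means gate 2 was the highest of the 4 gates in all 3 genes, and gate 4 lay at or below gate 1. The first step, by which the genes were called, is part of each difference. Taken alone, the step from gate 3 to gate 4 passed for Socs2 (-0.89, adjusted p = 0.0292, edgeR), and that from gate 2 to gate 3 did not (0.482). Neither later step passed for Ghr (adjusted p = 0.239 and 0.0990, edgeR) or Lamb2 (0.144 and 0.143).

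Cd302 and Rnase4 were also set against both later steps. Both were named for their first step, which is part of each difference below. Cd302 averaged 31.2, 77.0, 91.1 and 84.1 CPM over gates 1 to 4, and its first step exceeded the last by 1.44 ± 0.16 (adjusted p = 0.0347, edgeR). Its difference from the step between gates 2 and 3 was 1.08 ± 0.20 (adjusted p = 0.317, edgeR). Rnase4 averaged 61.9, 22.8, 10.1 and 12.1 CPM, and its first step lay below the last by -1.70 ± 0.14 (adjusted p = 0.0194, edgeR). Rnase4 also fell from gate 2 to gate 3, by 1.21 on the log2 scale (adjusted p = 0.00823, edgeR), and its first step differed from that by -0.21 ± 0.17 (adjusted p = 0.832, edgeR).

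**Figure D5:**
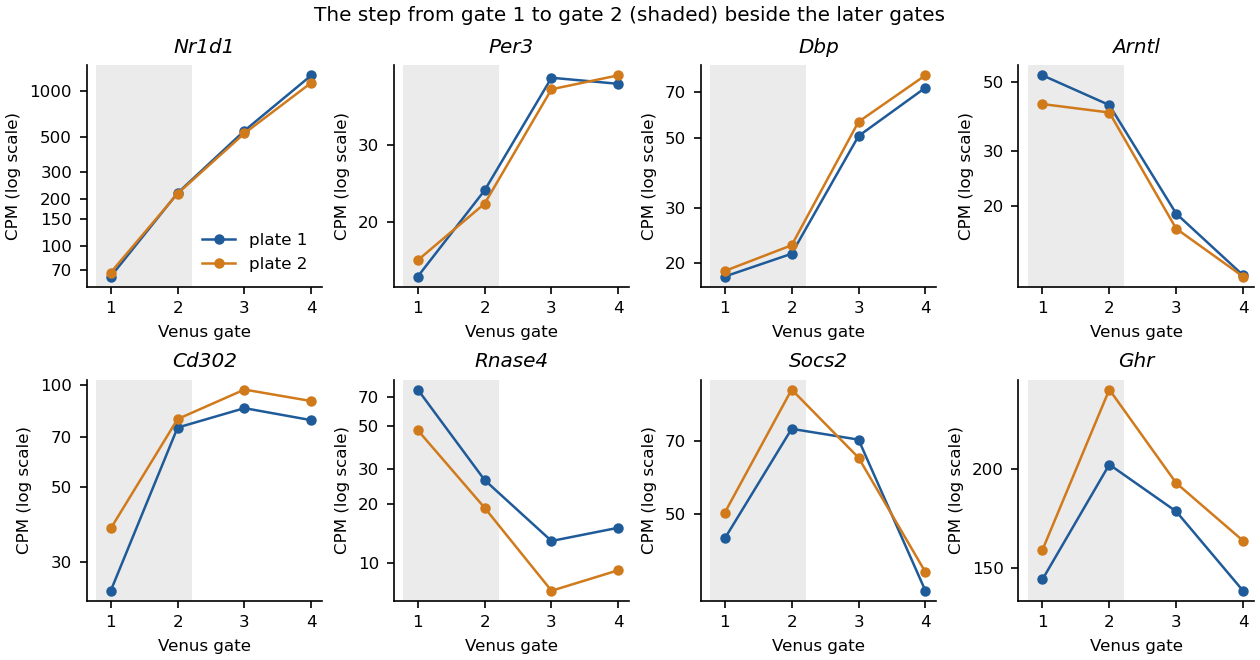
CPM in the summed counts (log axis, own scale per gene) is plotted against the Venus gate for plate 1 (blue) and plate 2 (orange), with the step from gate 1 to gate 2 shaded. Nr1d1 rises in every step shown. Per3, not called in the shaded step, rises in it and by a larger fitted value from gate 2 to gate 3 (0.54 and 0.86). Dbp and Arntl also change more from gate 2 to gate 3. For Per3, Dbp and Arntl the difference between these steps did not pass the test. Cd302 changes most within the shaded step, and Rnase4 falls in it and by a like amount from gate 2 to gate 3. Socs2 and Ghr are highest at gate 2.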

How the data were processed

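Counts per gene and cell were taken as deposited by the authors, and Venus, H2B-iRFP and scatter intensity values came from the authors' deposited sorting record, joined by plate and well. The submitters' processing notes name STAR 2.7.11a, SAMtools, bedtools, HTSeq and GRCm39/mm39, with no role given. Per the labels each well held 1 cell, and no doublet caller was run. Of 33757 features 24902 had a symbol, and those without held 1.07% of counts.

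Counts were summed over cells with at least 1000 genes per plate and gate. All 8 sums entered edgeR 4.0.16 (R 4.3.3; TMM, filterByExpr, quasi-likelihood F-test on gate plus plate), with Benjamini-Hochberg adjustment over 18430 genes. Each SE of an edgeR fit is the size of the log2 change divided by the square root of its F statistic. Plate-alone values are differences in log2 CPM with a prior count of 2. CPM values of sums are scaled by the TMM-adjusted totals, and those of single cells by the total of the cell without TMM. Alternatives used limma 3.58.1, DESeq2 1.42.0 and cells thinned to 640107 counts in Python 3.11.15. The scripts were tested on simulated data.

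Gates are paired by their shared plate. Deviations of same-plate sums from the gate means correlated at 0.405 between gates 1 and 2 over 9014 genes, and at 0.214 or more over all gate pairs, so plate is in the design.

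Named genes were, among called genes whose log2 CPM averaged 3 or more and whose sign was the same on both plates, the 12 largest rises and the falls up to 12, of which there were 10, without predicted genes. The reporters, both clock lists and, from each other list, up to 4 called members or else the 2 most expressed were added. The members and lists were chosen with earlier results of these data known. Sums held 76042157 to 84500392 counts, and exact intervals would cover counting error only.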

Additional observations from a re-analysis of the deposited data

Results flagged for a closer look

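In 6 gene lists the median log2 change from gate 1 to gate 2 had opposite signs on the 2 plates, and for each list the difference between the plates was not tested. Each plate has 1 sum per gate, and the plates also differ in H2B-iRFP sort. The plate 1 median minus the plate 2 median was 0.24 for targets of NRF2, an antioxidant response factor, and 0.21 for NF-kB and chemokine genes. It was -0.14 for endoplasmic reticulum stress and secretory genes, -0.13 for glucocorticoid targets, -0.0938 for immediate early genes and -0.0701 for collagens. No gene of these 6 lists was called by edgeR, where 0.282% of all genes were.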

How the results depend on the processing

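The 25 called genes named by rule kept their direction in every alternative, and 2 of them (YFP and Nr1d1) passed in all 12 alternatives with a test. The plates alone gave the same direction too, but for the largest rises and falls the naming rule required that. Pairing by plate mattered: with no replicate block 3 genes passed in place of 52 between gates 1 and 2, and 0 in place of 133 against the step from gate 3 to gate 4. Between gates 1 and 2 the count was 373 with no filter on low counts, 9 with only the 4 sums of both gates, 147 with thinned cells and 723 with DESeq2. Alternatives chosen after seeing the data gave 22 without cells with no YFP count and 79 without the top cell of each gene. Without cells holding Fmr1nb, Gm32885 or Efcab3 the count was 65. In that fit 27 of the 49 main calls that were still tested passed, and 9 of the 25 named genes did not pass. Against the step from gate 2 to gate 3 the count of 0 became 62 with no low filter, 1 with limma voom and 126 with DESeq2. Against the step from gate 3 to gate 4 it became 533 with no low filter, 246 with thinned cells, 88 without cells with no YFP count and 1004 with DESeq2. The cause was not tested in any of these.

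Signs turned only in genes that were not called. Without cells holding Fmr1nb, Gm32885 or Efcab3 the log2 changes became 0.0379 for Per1, 1.41 for Npas2, -0.0365 for Slbp, -0.0418 for Cdk4, -0.0506 for Col1a1, -0.00268 for Col1a2, 0.0313 for Sgk1, -0.0153 for Ifi27, -0.0826 for Ccl7 and -0.0432 for Rpl4. Without cells with no YFP count they became 0.13 for Per1, 0.43 for Hlf, 0.12 for Ciart, -0.0245 for Nfil3, -0.00174 for Slbp, -0.0271 for Cdk4, -0.0583 for Col1a1, -0.0139 for Col1a2, 0.0516 for Sgk1, -0.0295 for Ifi27 and -0.0313 for Rpl4. Without the top cell Per1 became 0.00288 and Slbp -0.0209. With thinned cells Slbp became -0.00697, Klf4 -0.0122 and Canx 0.00182, and Canx was 0.00579 without TMM and 0.00076 with only the 4 sums. Ordering the gates on the 530 nm detector gave the same order on both plates, and comparisons with later steps could not be made from only 4 sums. With 2 plates an exact paired permutation test cannot go below p = 0.5, and a plate alone gives values without a test.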

Other observations

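Called genes below a mean log2 CPM of 3 numbered 21, and those named here were chosen after their values were seen. Agmo, which encodes an enzyme that cleaves ether lipids, measured 4.86 and 3.54 CPM in gate 1 and 13.8 and 13.98 CPM in gate 2, a log2 change of 1.73 ± 0.16 (adjusted p = 0.0192, edgeR). It had counts in 24 of 95 and 25 of 96 cells of gate 1 and in 62 and 71 of 96 cells of gate 2. Phyh, a peroxisomal enzyme of branched fatty acid breakdown, measured 6.07 and 1.32 CPM in gate 1 and 18.1 and 11.3 CPM in gate 2, a log2 change of 2.24 ± 0.31 (adjusted p = 0.0416, edgeR). On plate 2 of gate 1 a single cell held 66.0% of its counts.

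A small set of gate 1 cells held transcripts that were nearly missing from gate 2. Fmr1nb, a gene known from testis, had 162 and 822 counts in gate 1 and 0 and 1 in gate 2. Gm32885 had 140 and 382 counts in gate 1 and none in gate 2, at least 180-fold lower against a floor of 3 counts over both plates. Efcab3, which overlaps the predicted gene Gm11639 on the same strand, had 97 and 243 counts and none in gate 2, at least 117-fold lower against the same floor. At least 1 of the 3 was found in 14 of 95 and 17 of 96 cells of gate 1, and all 3 in 3 and 8 cells. The brighter gates were not free of them: at least 1 was found in 2 and 0 of 96 cells of gate 3 and in 5 and 5 of 96 cells of gate 4. None of those cells held more than 1 of the 3. Of the gate 1 cells with at least 1, 7 of 14 and 10 of 17 held no YFP count, beside 16 of 81 and 7 of 79 of the other gate 1 cells. The share of these cells that lacked the reporter transcript was not tested against the others, since the set was defined after the values were seen.

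Follistatin (Fst), a secreted activin antagonist, went the other way on few cells. It had no count in gate 1 and 87 and 21 counts in gate 2, at least 34.7-fold higher against the floor of 3 counts over both plates. These came from 6 and 3 cells, and 1 cell held 64.4% and 71.4% of them.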
